A study of Mus musculus with 8 samples.

Results

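The genes described here are the Wnt ligands, their receptors and the factors that modulate them, followed in the epidermis of newborn mice with and without Zfp750. They were chosen by symbol: every row of the deposited table whose symbol starts with Wnt, Fzd, Dkk, Sfrp, Axin, Rspo or Tcf7, together with Lef1, Ctnnb1, Lrp5, Lrp6, Lgr4, Lgr5, Lgr6, Znrf3 and Rnf43. This gave 47 of 15995 genes. The rule itself used symbols alone. Rows exist only for genes with a value in the library knockout 1, and the rule was set with earlier results of these data known. Family members without a row, such as Wnt1 and Dkk1, were not analysed here. RNA sequencing had been run on 4 knockout libraries (genotype ZFP750-/-) and 4 wild-type libraries (genotype WT), all of strain C57BL/6J, the inbred black laboratory mouse. The skin of newborn pups had been laid in cold trypsin-EDTA until the next day, and the epidermis was then peeled off and frozen. The labels do not say which part of Zfp750 was removed, nor whether each library came from its own pup, so p-values measure the spread between these samples. The sample titles also carry an unexplained code, 11 for knockout 1 and wild type 4, 14 for knockout 2 and wild type 3, and 44 for the other 4 libraries. Knockout 1 and knockout 2 share the name KO1 in their titles, with different codes. Whether they came from the same animal is not stated, and the tests treat them as separate samples.

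Wnt proteins are secreted lipid-modified ligands that bind Frizzled receptors together with the coreceptors Lrp5 and Lrp6. Binding halts the complex of Axin, Apc and kinases that destroys beta-catenin, and beta-catenin then enters the nucleus and activates genes with the Tcf and Lef factors. R-spondins, through the Lgr receptors, raise the response by removing the ligases Znrf3 and Rnf43, which take Frizzled off the cell surface, while Dickkopf and Sfrp proteins hold it back. In skin the pathway is known for the induction of hair follicles and for the upkeep of basal keratinocytes.

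Zfp750 stood at 1.53 to 2.68 FPKM (fragments per length of transcript and per library size) across the knockouts and at 81.6 to 119 across the wild types, in accord with the labels. The summed FPKM per library was 483416 to 577300, the deposited values carry no read counts, and the absolute depth is therefore unknown. The labelled tissue showed its markers: the basal keratin gene Krt14 was at 417 FPKM or above in every library and the cornified envelope gene Lor at 2188 or above. The suprabasal keratins Krt1 and Krt10 were listed at 0 in 6 libraries and were left out of the tests. Libraries differed in the RNA of particular cells. Basal keratinocyte markers (8 of 8 with a row) summed to 6275, 4504, 5462 and 2382 FPKM in knockouts 1 to 4, while wild types 1 to 4 had 1176, 1796, 2798 and 3629. Hair follicle markers (15 of 15 with a row, most of the sum from Krt17) came to 988, 799.5, 599 and 357 FPKM across the knockouts and 202, 252, 508 and 566 across the wild types. Knockout 4 and wild types 1 and 2 were thus the low libraries of their groups for both lists. Langerhans and myeloid markers (6 of 7 with a row) summed to 1.95 to 4.51 FPKM across the knockouts and 14.3 to 38.7 across the wild types, and T lymphocyte markers (4 of 5) to 1.19 to 4.58 and 7.21 to 9.01. In bulk RNA, fewer cells of a type and less RNA per cell cannot be told apart.

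Of the 47 members, 35 reached 1 FPKM in at least 4 libraries and were tested, and 12 did not. On log2(FPKM + 1), with limma and Benjamini-Hochberg adjustment over all 11395 genes tested, 3 members rose in the knockouts (the ligands Wnt3 and Wnt11 and the antagonist Sfrp1), 1 fell (Dkkl1) and 31 did not pass at an adjusted p of 0.05. Over all genes tested 15.7% passed, 6.72% as higher and 8.94% as lower, and 4 members of 35 is a share of 11.4%. In this fit the share of members called was below that of all genes, and the order of the 2 shares turned in several other fits. The shares were 22.9% against 20.1% without knockout 4, 17.1% against 15.9% with median-ratio scaling, and 45.7% against 32.2% with array weights. With title code 44 alone the share of members was 14.7%, where 1227 of 11200 genes passed. The order also turned without knockout 2 (11.4% against 10.8%), wild type 1 (11.1% against 9.69%) or wild type 2 (11.1% against 10.4%). Without knockout 3 it turned as well, with 11.4% of members called, where 1270 of 11535 genes passed. In the remaining fits the order did not turn. The median log2 change of the tested members was 0.27 and that of all genes 0.01, with 22 members above 0 and 13 below. Of all genes tested, 50.9% had a change above 0. The plot of changes by role shows the 4 called members with the largest changes. Wnt10a came close to Sfrp1 in its change but had a wider error (SE 0.48 against 0.19). Among the Frizzled and Lrp receptors the changes lay between -0.42 and 0.46, with SE of 0.11 to 0.32.

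**Figure D1:**
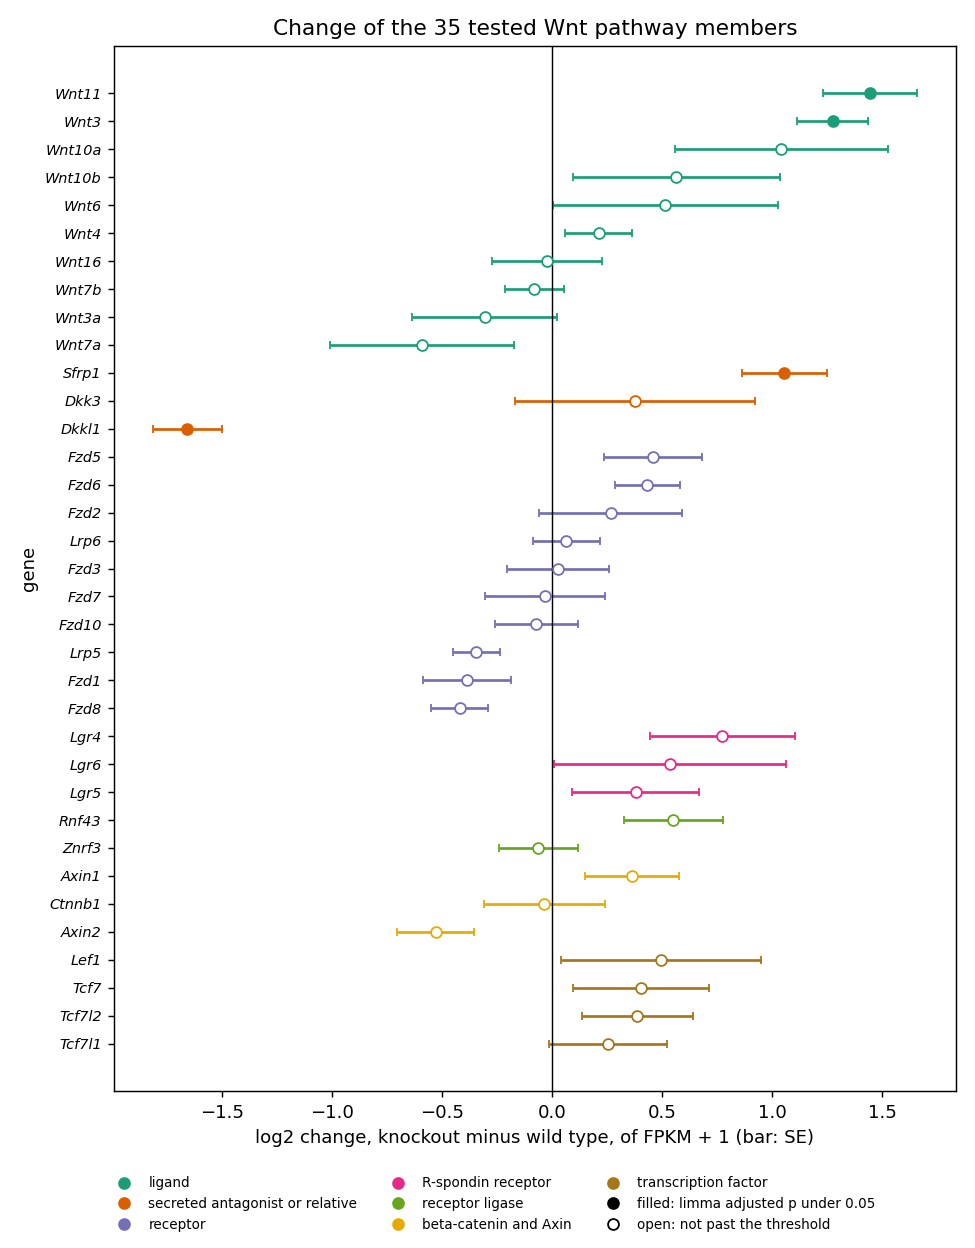
Log2 change of FPKM + 1, knockout minus wild type, with its SE for the 35 tested members, in 7 role groups marked by colour, with filled points for a limma adjusted p under 0.05. Wnt11 (1.44), Wnt3 (1.27) and Sfrp1 (1.05) lie on the right and Dkkl1 (-1.66) on the left, while Wnt10a has a large change with a large error.

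Wnt3, a ligand that acts through beta-catenin, rose. Its levels were 28.8, 30.3, 36.2 and 39.0 FPKM in knockouts 1 to 4, while wild types 1 to 4 had 11.5, 10.9, 14.6 and 16.6. Every knockout was above every wild type. The log2 change was 1.27 ± 0.16 (SE; limma adjusted p = 7.68e-04), or 2.51 times the wild-type mean FPKM. Its level was highest in knockout 4. There the summed basal markers, most of them keratin RNA, were below those of wild types 3 and 4, while 3 of the 8 genes of that list (Itgb4, Col17a1 and Lamb3) were above every wild type, Itgb4 at 79.2 FPKM against at most 28.0. The part of basal cell content in the rise of Wnt3 was not tested. Within title code 11 the log2 difference was 0.76, within code 14 it was 1.004 and within code 44 it was 1.67, and the test of code 44 against codes 11 and 14 did not pass (limma adjusted p = 0.182).

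Wnt11, a ligand best known for signalling without beta-catenin, rose from a very low level. The knockouts had 2.05, 4.25, 1.94 and 2.98 FPKM and the wild types 0.583, 0.165, 0.476 and 0.257 FPKM. The groups did not overlap, and no wild type reached 1 FPKM, so that this gene entered the test through its knockout values alone. The log2 change was 1.44 ± 0.21 (SE; limma adjusted p = 0.00194). Within codes 11, 14 and 44 the log2 difference was 1.28, 1.83 and 1.33. Wnt11 was highest in knockout 2, the library with the most collagen RNA of fibroblasts (Col1a1 at 29.5 FPKM, against at most 7.58 elsewhere). The whole fibroblast list (9 of 10 with a row) summed to 104, 219, 95.2 and 27.3 FPKM across the knockouts and 36.9, 54.8, 100.1 and 115 across the wild types, and its part in the difference of Wnt11 was not tested.

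Sfrp1, a secreted protein that binds Wnt ligands and is counted among their antagonists, rose as well. Its levels were 2.31, 2.47, 3.69 and 4.03 FPKM in knockouts 1 to 4, while wild types 1 to 4 had 0.993, 0.591, 1.28 and 1.01. The groups did not overlap, and the title code 44 knockouts (3 and 4) were the higher ones. Among the wild types only wild types 3 and 4 reached 1 FPKM, so Sfrp1 entered the test mainly through its knockout values. The log2 change was 1.05 ± 0.19 (SE; limma adjusted p = 0.00565). The call was lost with title codes 11 and 14 alone (0.66 ± 0.17, limma adjusted p = 0.0506), and without knockout 4 and wild types 1 and 2 (0.82 ± 0.21, limma adjusted p = 0.0564).

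Dkkl1, a Dickkopf-related secreted protein known mainly from sperm, was the most abundant of the secreted modulators and fell. It stood at 286, 256, 211 and 195 FPKM in wild types 1 to 4 and at 59.3, 78.3, 74.9 and 84.2 FPKM in knockouts 1 to 4. Every wild type was above every knockout by a wide margin. The log2 change was -1.66 ± 0.16 (SE; limma adjusted p = 1.41e-04), and the knockout mean was 0.313 of the wild-type mean. Among wild types, those of title code 44 had the most Dkkl1. These libraries were low in basal and hair follicle markers and had the smallest sums of Langerhans and myeloid markers. The suprabasal markers Ivl, Dsg1a and Tgm3 were higher in both than in the other wild types, while Lor and Tgm1 were not. Between genotypes 1 of 5 tested suprabasal markers rose (Ivl) and 0 fell. The part of these cell types in the fall of Dkkl1 was not tested. Within codes 11, 14 and 44 the log2 difference was -1.70, -1.42 and -1.76.

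**Figure D2:**
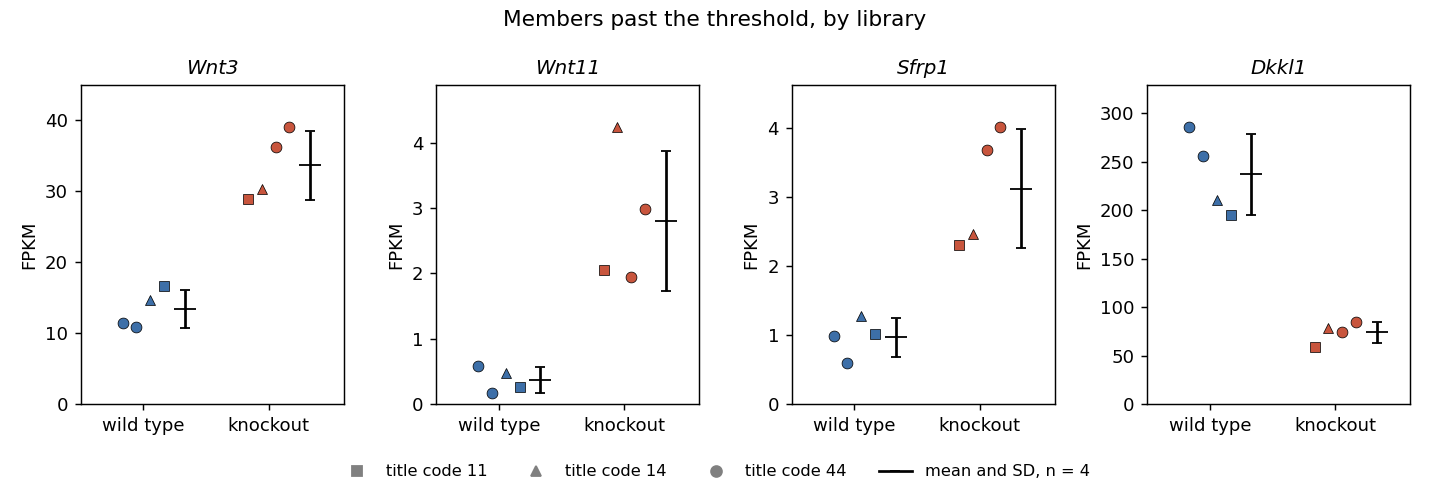
FPKM of the 4 members past the threshold in each library, blue for wild type and red for knockout, with marker shapes for title codes 11, 14 and 44 and black bars for the mean and SD (n = 4). In each panel the 2 genotypes are separate: Wnt3 spans 28.8 to 39.0 FPKM across the knockouts and 10.9 to 16.6 across the wild types.

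In GRCm38, the build that mm10 denotes, Wnt3 spans 103774150 to 103817957 on the plus strand of chromosome 11, and Wnt11 98835112 to 98855195 on the plus strand of chromosome 7. Dkkl1 lies on chromosome 7 from 45207519 to 45212147 on the minus strand, and Sfrp1 on chromosome 8 from 23411502 to 23449632 on the plus strand. No annotated gene overlaps Wnt3, Dkkl1 or Sfrp1, while Wnt11 overlaps the gene model Gm8398 on the opposite strand, whose reads may have been counted with it. Of the 4 called members, the RefSeq promoters of Wnt3, Wnt11 and Dkkl1 are printed here because Zfp750 is a transcription factor, and none is printed for Sfrp1. They run from 250 bases before to 50 bases after the RefSeq start (build GRCm38.p6, 5′ to 3′ on the gene's strand). The Dkkl1 window lies wholly within the GENCODE span given above for that gene. Its RefSeq start is thus inside the GENCODE 5′ end, and the window holds no sequence upstream of that span. Promoter sequence was matched for 29 of 47 members. Capitals mark matches, on either strand, to the Tcf/Lef core (CTTTGAT or CTTTGAA), to the motif reported for ZNF750, the human counterpart of Zfp750 (CCNNAGGC), and to the CACCC box bound by Klf factors.
Wnt3 promoter, chr11:103773925-103774224, plus strand: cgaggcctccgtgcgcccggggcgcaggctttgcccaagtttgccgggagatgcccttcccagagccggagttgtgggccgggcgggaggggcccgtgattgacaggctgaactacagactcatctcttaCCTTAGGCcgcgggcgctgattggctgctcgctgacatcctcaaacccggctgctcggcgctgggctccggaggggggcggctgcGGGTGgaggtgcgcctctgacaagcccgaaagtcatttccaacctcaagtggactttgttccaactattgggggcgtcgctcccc
Wnt11 promoter, chr7:98834862-98835161, plus strand: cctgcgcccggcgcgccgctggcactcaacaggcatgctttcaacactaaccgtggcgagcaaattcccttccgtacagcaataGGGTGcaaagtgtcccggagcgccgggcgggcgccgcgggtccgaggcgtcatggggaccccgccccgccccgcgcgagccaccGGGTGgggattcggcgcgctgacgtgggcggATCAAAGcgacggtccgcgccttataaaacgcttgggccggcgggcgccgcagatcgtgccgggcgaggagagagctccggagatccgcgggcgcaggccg
Dkkl1 promoter, chr7:45211834-45212133, minus strand: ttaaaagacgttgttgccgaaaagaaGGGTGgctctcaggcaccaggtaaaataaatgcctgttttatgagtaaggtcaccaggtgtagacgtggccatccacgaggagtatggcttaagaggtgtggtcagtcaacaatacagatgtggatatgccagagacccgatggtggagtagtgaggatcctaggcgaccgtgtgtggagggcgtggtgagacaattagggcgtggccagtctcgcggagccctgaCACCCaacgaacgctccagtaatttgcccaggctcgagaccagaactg
The Wnt3 window held 1 ZNF750 match and 1 CACCC box, the Wnt11 window 1 Tcf/Lef match and 2 CACCC boxes, and the Dkkl1 window 2 CACCC boxes. Of 32851 RefSeq promoters of this length, 24.1% held a ZNF750 match, 8.65% a Tcf/Lef match and 57.5% a CACCC box. Among 39 promoters of the members these counts were 11, 2 and 28. No match overlapped another in the 3 printed windows. These are matches of letters and no measure of binding. The 3 promoters also differ in base composition, with a GC content of 65.7% for Wnt3, 71.3% for Wnt11 and 53.0% for Dkkl1, against a median of 52.7% over all promoters.

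The other Wnt ligands ranged from abundant to trace levels. On the FPKM scale, which is per length and lets genes be compared, Wnt7b was the most abundant ligand in every library, at 56.4 ± 4.76 FPKM in the wild types (SD, n = 4) and 53.7 ± 8.49 in the knockouts (log2 -0.08 ± 0.13, limma adjusted p = 0.744). Wnt4, next in the wild types, was at 24.6 ± 3.84 and 28.7 ± 4.37 FPKM (0.21 ± 0.15, limma adjusted p = 0.412). In the knockouts Wnt3 took a mean of 18.2% of the summed ligand FPKM, against 9.19% in the wild types. The share of Wnt7b was 27.6% against 39.6%, while its own level differed by less than the spread between libraries. Wnt16 was at 8.49 ± 2.47 FPKM across the knockouts and 8.79 ± 3.06 across the wild types (limma adjusted p = 0.967). Wnt3a and Wnt7a, both ligands that act through beta-catenin, were at 0.451 to 3.10 and at 0.382 to 5.58 FPKM over the 8 libraries, with log2 changes of -0.31 ± 0.33 and -0.59 ± 0.42 (limma adjusted p = 0.595 and 0.404). Wnt7a passed with title codes 11 and 14 alone (-1.18 ± 0.22, limma adjusted p = 0.0197) and was level with code 44 alone (0.00044), and the difference between the 2 sets did not pass (limma adjusted p = 0.411).

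**Figure D3:**
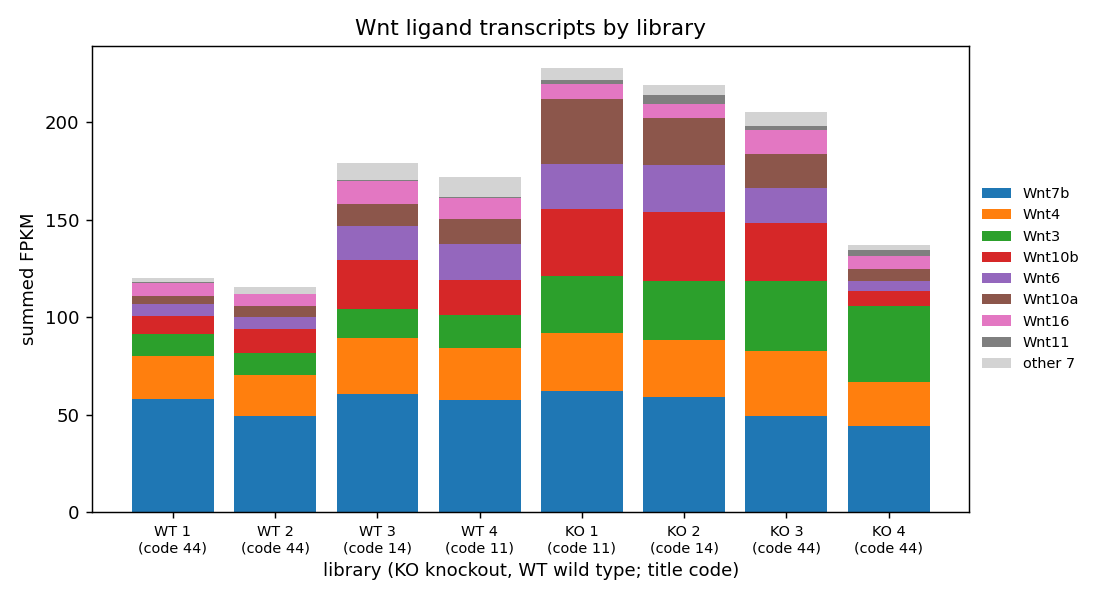
Summed FPKM of the 15 Wnt ligands with a row in each library, stacked by gene, wild types left and knockouts right, with the title code under each. Wnt7b is the base of every bar, Wnt3 (green) is thicker in all 4 knockouts, and Wnt10b, Wnt6 and Wnt10a are thin in wild types 1 and 2 and in knockout 4.

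Wnt10a and Wnt10b, ligands of developing hair follicles, and Wnt6, another epithelial ligand, varied widely within each genotype. Wnt10a stood at 33.2, 24.0, 17.3 and 5.96 FPKM in knockouts 1 to 4, while wild types 1 to 4 had 4.31, 5.79, 11.3 and 12.7. Knockout 4 lay among the wild types, the other 3 above them all. The log2 change, 1.04 ± 0.48, did not pass (limma adjusted p = 0.195). It passed with the title code as a block (limma adjusted p = 0.0266), with codes 11 and 14 alone (1.17 ± 0.20, limma adjusted p = 0.0139) and without knockout 4 (1.504 ± 0.35, limma adjusted p = 0.0160). Wnt10b, at 34.4, 35.6, 29.7 and 7.52 FPKM across the knockouts and 9.44, 12.5, 25.0 and 18.4 across the wild types, passed without knockout 4 (1.06 ± 0.28, limma adjusted p = 0.0258) and not with it (0.56 ± 0.47, limma adjusted p = 0.483). Wnt6 had 23.3, 24.2, 17.9 and 5.23 FPKM across the knockouts and 5.78, 6.13, 17.5 and 18.4 across the wild types (0.51 ± 0.51, limma adjusted p = 0.562). Wnt6 and Wnt10a are neighbours on the plus strand of chromosome 1, Wnt6 from 74771892 to 74785322 and Wnt10a from 74791516 to 74804179, with 6193 bases between them (GRCm38).

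The receptors of R-spondins and the Tcf and Lef factors had the same low libraries. Lgr4, an R-spondin receptor, was at 39.1, 41.4, 33.5 and 16.7 FPKM across the knockouts and at 12.1, 13.7, 19.7 and 29.5 across the wild types (log2 0.77 ± 0.33, limma adjusted p = 0.157). It passed with the title code as a block (limma adjusted p = 0.0295) and without knockout 4 (1.06 ± 0.26, limma adjusted p = 0.0227). Lgr6, which marks stem cells of the follicle and the epidermis, was at 31.9, 25.9, 22.9 and 6.83 FPKM across the knockouts and 5.65, 10.2, 15.8 and 28.9 across the wild types (limma adjusted p = 0.557). Lgr5, the stem cell receptor of the follicle bulge, stayed between 0.261 and 2.21 FPKM (limma adjusted p = 0.436). Lef1, the factor of hair placodes and matrix, had 13.6, 12.2, 19.2 and 4.41 FPKM across the knockouts and 4.03, 4.92, 11.01 and 13.9 across the wild types (0.50 ± 0.45, limma adjusted p = 0.527). Tcf7, Tcf7l1 and Tcf7l2, the other factors of the family, were at 0.583 to 4.49 FPKM, with log2 changes of 0.41, 0.25 and 0.39, and none passed. In all 4 factors and all 3 Lgr receptors both title code 44 wild types were below the other 2, and knockout 4 was the lowest knockout.

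**Figure D4:**
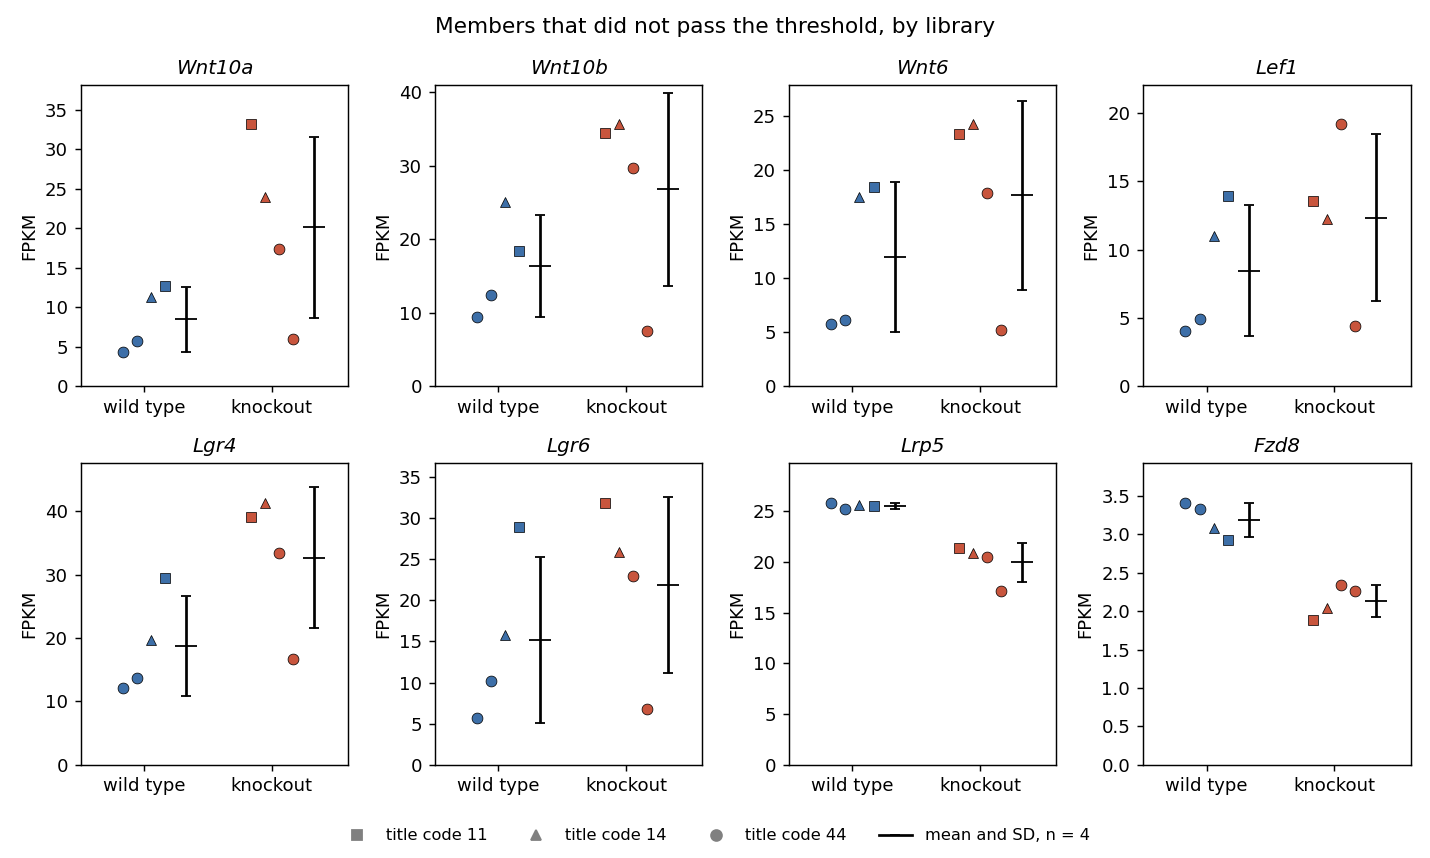
FPKM by library of 8 members that did not pass, blue for wild type and red for knockout, with marker shapes for title codes and black bars for mean and SD (n = 4). In the first 6 panels the title code 44 wild types and 1 code 44 knockout sit low, while Lrp5 and Fzd8 separate the genotypes by a small difference.

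This pattern was common to most members. Both title code 44 wild types lay below the other wild types in 27 of 35 tested members, against 41.4% of all genes tested. Knockout 4 was the lowest knockout in 28 of 35, against 43.3% of all genes, and both held in 24 of 35, against 25.4%. Among hair follicle markers both held in 11 of 14 tested and among melanocyte markers in 7 of 8, among basal keratinocyte markers in 5 of 8, and among suprabasal markers in 0 of 5. Shh, a signal of the hair placode, was at 11.4, 9.92, 9.83 and 1.93 FPKM in knockouts 1 to 4, while wild types 1 to 4 had 1.49, 2.36, 7.72 and 8.28. Of the 14 tested follicle markers, 1 rose (Cux1) and 0 fell between genotypes, with a median log2 change of 0.35. Among these, Krt25 and Krt71 had log2 changes of -0.84 and -1.15 (limma adjusted p = 0.398 and 0.254). Krt27, the follicle marker below the filter, was at 0.0898 to 0.520 FPKM across the knockouts. Across the wild types it was at 0.838 to 6.62 FPKM, without overlap. Of the 8 basal markers 5 rose. None of the 15 follicle markers was at 0 in any library. The part of follicle and basal cell content in the differences of Wnt10a, Wnt10b, Wnt6, Lgr4, Lgr6 and Lef1 was not tested. Without knockout 4 and wild types 1 and 2, 3 of the 4 called members passed, namely Wnt3, Wnt11 and Dkkl1, and no other member did.

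**Figure D5:**
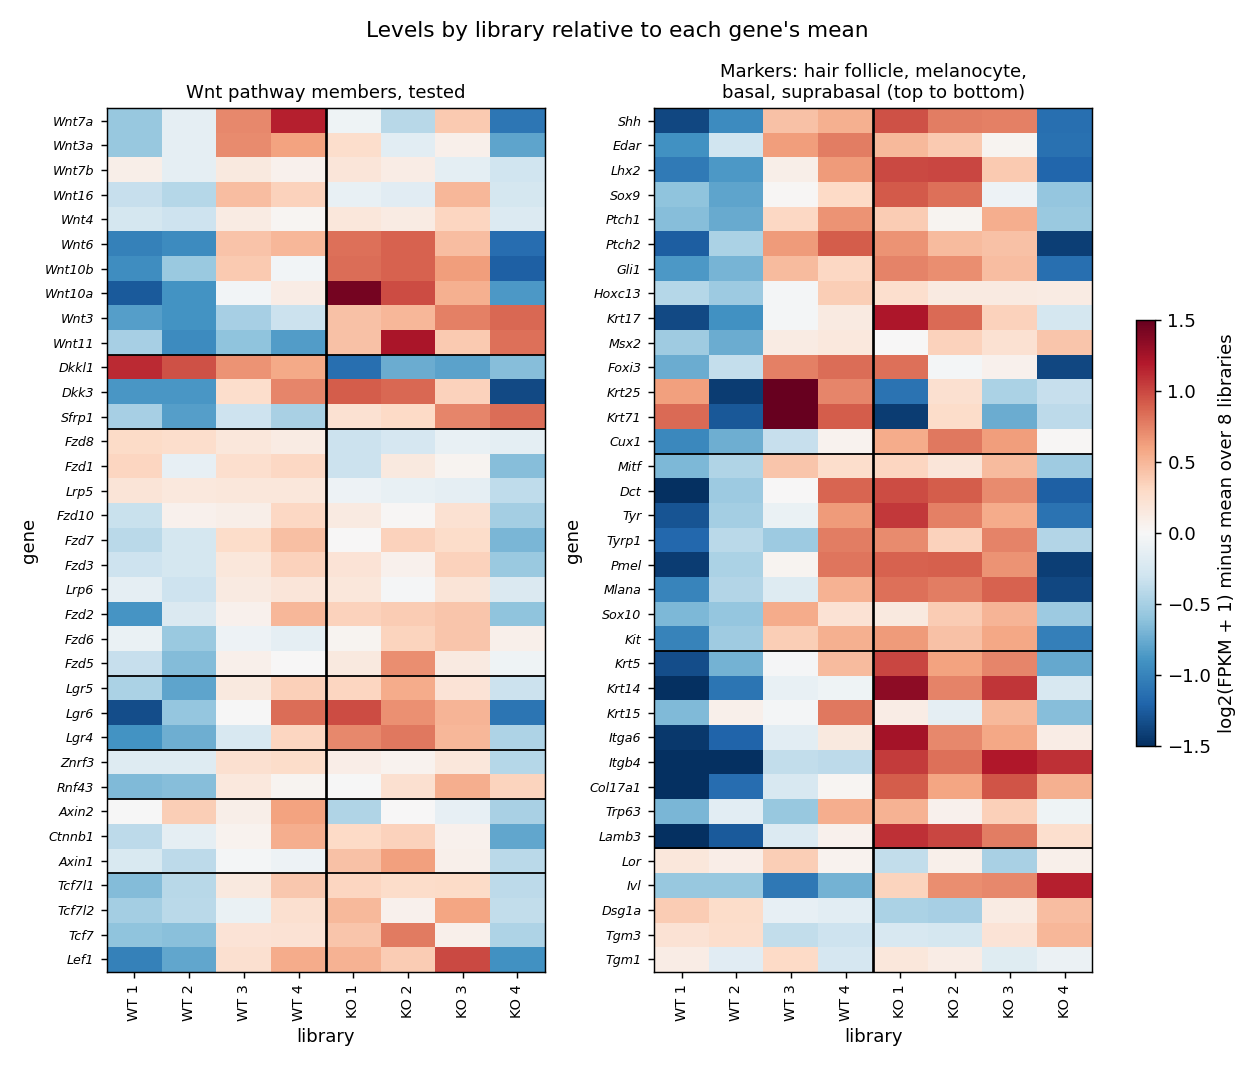
Colour gives log2(FPKM + 1) minus the gene's mean over the 8 libraries, with colours ending at 1.5 either way, for the 35 tested members by role (left) and for tested markers of follicle, melanocyte, basal and suprabasal cells (right), with wild types (WT) left of the black line and knockouts (KO) right. Columns WT 1, WT 2 and KO 4 are blue for most members and for follicle and melanocyte markers, while Dkkl1, Wnt3, Wnt11 and Sfrp1 follow genotype.

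Among the receptors of Wnt ligands none passed, and differences were small. Fzd10 was the most abundant Frizzled in each library, at 48.1 ± 10.2 FPKM across the knockouts (SD, n = 4) and 50.3 ± 9.14 across the wild types (limma adjusted p = 0.845), followed by Fzd6, a receptor of planar polarity. Fzd6 stood at 26.6, 32.7, 34.6 and 27.1 FPKM across the knockouts and 24.0, 17.1, 24.5 and 23.3 across the wild types, without overlap (log2 0.43 ± 0.15, limma adjusted p = 0.0812). Lrp5, a coreceptor, was at 21.4, 20.9, 20.5 and 17.2 FPKM across the knockouts and at 25.9, 25.2, 25.6 and 25.5 across the wild types, again without overlap (-0.34 ± 0.11, limma adjusted p = 0.0574). Fzd8 had 1.89, 2.05, 2.35 and 2.26 FPKM against 3.42, 3.33, 3.08 and 2.93 (-0.42 ± 0.13, limma adjusted p = 0.0577). Fzd6 passed under median-ratio scaling (limma adjusted p = 0.0474) and Lrp5 with no filter on low values (limma adjusted p = 0.0470). With the 4 called members, 7 of 35 members had groups that did not overlap, against 21.3% of all genes, 4 of them higher in the knockouts (8.78% of all genes) and 3 lower (12.5%). Lrp6, the other coreceptor, was at 15.6 ± 2.09 FPKM across the knockouts and 14.9 ± 2.51 across the wild types (limma adjusted p = 0.824). Fzd1, Fzd2, Fzd3, Fzd5 and Fzd7 were at 1.37 to 9.59 FPKM with log2 changes between -0.39 and 0.46, and none passed.

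Beta-catenin, Axins and the receptor ligases showed no called change. Ctnnb1, which encodes beta-catenin and also serves cell junctions, was on average the most abundant member, at 296, 306, 253 and 140.1 FPKM across the knockouts and 183, 219, 250.2 and 352 across the wild types (log2 -0.04 ± 0.27, limma adjusted p = 0.949). Axin2, a feedback inhibitor whose own gene is a widely used readout of beta-catenin activity, had 9.53, 13.5, 12.3 and 9.32 FPKM across the knockouts and 13.4, 17.7, 14.4 and 20.9 across the wild types. Only knockout 2 reached the wild-type range. Its change of -0.53 ± 0.18 did not pass (limma adjusted p = 0.0735) and did so under median-ratio scaling (limma adjusted p = 0.0435). Axin1, the constant scaffold of the destruction complex, had a log2 change of 0.36 ± 0.21 (limma adjusted p = 0.308), and passed without knockout 4 (0.56 ± 0.16, limma adjusted p = 0.0393). Rnf43 was at 6.96 ± 1.25 FPKM across the knockouts and 4.56 ± 1.65 across the wild types (0.55 ± 0.22, limma adjusted p = 0.137). With title code 44 alone it passed (1.09 ± 0.19, limma adjusted p = 0.0258), a difference from codes 11 and 14 that itself did not pass (limma adjusted p = 0.182). Znrf3, the related ligase, was at 9.22 ± 1.76 and 9.66 ± 1.90 FPKM (limma adjusted p = 0.862). Dkk3, a divergent Dickkopf, was at 8.17, 7.82, 5.19 and 0.903 FPKM across the knockouts and at 1.65, 1.66, 4.83 and 7.12 across the wild types (limma adjusted p = 0.702).

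Members below the filter were Wnt2b, Wnt5a, Wnt5b, Wnt8a, Wnt9b, Fzd4, Fzd9, Dkk4, Sfrp2, Sfrp4, Rspo1 and Rspo3, which reached at most 1.75 FPKM in any library. In none of these 12 were the genotypes free of overlap. Wnt5a, the main ligand of beta-catenin-independent signalling, had 0.470, 1.46, 1.13 and 1.11 FPKM across the knockouts and 0.372, 0.0554, 0.565 and 0.574 across the wild types, with knockout 1 inside the wild-type range. Rspo3, an R-spondin of dermal cells, had 0.117, 1.62, 0.664 and 0.454 FPKM across the knockouts and 0.0255, 0, 0.183 and 0.232 across the wild types, where the 0 stands for a missing value. Knockout 2, which had the most Rspo3, Rspo1 and Wnt5a, also had the most RNA of the fibroblast collagens, with Col3a1 at 59.9 FPKM against at most 12.6 in the other libraries. In the fibroblast list Pdgfrb and Dpt were each at 0 in 1 library. The part of fibroblast RNA in these low values was not tested.

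Further genes of the pathway came from lists chosen by function. Of 66 tested genes that are no members, 3 rose, 3 fell and 60 did not pass, a share of 9.09% against 15.7% of all genes, and their median log2 change was 0.19. The largest change was in Ctnnbip1, the inhibitor that keeps beta-catenin from Tcf factors, at 41.5, 57.1, 52.1 and 57.3 FPKM across the knockouts and 133, 110.3, 137 and 88.6 across the wild types. The groups did not overlap (log2 -1.15 ± 0.17, limma adjusted p = 0.00161). Aes, also called Tle5, a short corepressor of the Groucho family, fell from 95.6 ± 14.7 to 53.3 ± 3.69 FPKM (-0.82 ± 0.13, limma adjusted p = 0.00293). These 2 were the called genes among 14 tested nuclear cofactors. Of 11 tested genes known as beta-catenin targets in some tissue, Cd44, a hyaluronan receptor, rose from 49.0 ± 7.77 to 81.6 ± 11.1 FPKM (0.73 ± 0.15, limma adjusted p = 0.00880) and Bambi, a pseudoreceptor for TGF-beta, from 0.660 ± 0.439 to 2.21 ± 0.288 FPKM (0.98 ± 0.20, limma adjusted p = 0.00934). Among the wild types Bambi reached 1 FPKM in wild type 4 alone (1.27 FPKM), so it entered the test mainly through its knockout values. None of the 11 tested targets fell. Myc, in the same list, was at 107, 87.8, 90.01 and 41.9 FPKM across the knockouts and 41.5, 54.1, 25.2 and 38.1 across the wild types, and did not pass (limma adjusted p = 0.0568), though without knockout 4 it did (limma adjusted p = 0.00434). Of 13 tested genes of planar polarity and alternative receptors, the polarity protein gene Vangl2 rose (0.47 ± 0.13, limma adjusted p = 0.0315) and the formin gene Daam1 fell (-0.49 ± 0.14, limma adjusted p = 0.0480). Vangl2 was tightly grouped in the knockouts, at 22.3, 20.9, 22.3 and 22.3 FPKM, above 13.5, 14.005, 16.0 and 18.9 in the wild types. When single libraries were left out, the adjusted p of limma was 0.015 to 0.097 for Vangl2 and 0.040 to 0.14 for Daam1, and Vangl2 passed without knockout 4 or wild type 4 alone, Daam1 without wild type 2 or wild type 4 alone. With codes 11 and 14 alone Aes, Cd44 and Bambi lost their calls as well (limma adjusted p = 0.0601, 0.0929 and 0.0975), and of the 6 called genes Ctnnbip1 passed. Without knockout 4 and wild types 1 and 2, of these 6 again Ctnnbip1 alone passed, and Myc passed too (1.58 ± 0.20, limma adjusted p = 0.00452).

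With no covariate, no gene passed among 17 tested of the destruction complex and Dishevelled, 10 tested antagonists and coreceptor modulators, and the 2 genes of Wnt release. The smallest p among the first belonged to the kinase gene Csnk1d (log2 0.38 ± 0.13, limma adjusted p = 0.0846), followed by Gsk3b (0.30 ± 0.11, limma adjusted p = 0.114) and Btrc (0.51 ± 0.20, limma adjusted p = 0.115). With the title code as a block Csnk1d passed (limma adjusted p = 0.0447), as it did without knockout 4 (limma adjusted p = 0.0313). Tnks2 passed with codes 11 and 14 alone and without knockout 4, and Dvl3 with code 44 alone and without wild type 3. Each of these genes also passed with array weights. Gpc4, a cell surface glypican, was at 13.6, 10.6, 12.1 and 6.02 FPKM across the knockouts and 3.56, 4.03, 5.57 and 7.96 across the wild types (0.88 ± 0.28, limma adjusted p = 0.0594), and passed without knockout 4 (1.11 ± 0.23, limma adjusted p = 0.0108) or without wild type 4 (1.07 ± 0.27, limma adjusted p = 0.0305). It also passed with the title code as a block (limma adjusted p = 0.0150) and under median-ratio scaling (limma adjusted p = 0.0365). Wif1, a secreted Wnt inhibitor, and Sostdc1, which modulates both Wnt and BMP signals in skin appendages, had log2 changes of 0.78 ± 0.34 and -0.49 ± 0.27 (limma adjusted p = 0.162 and 0.287). Wif1 passed with the title code as a block (limma adjusted p = 0.0450) and without knockout 4 (limma adjusted p = 0.0269), and Sostdc1 with codes 11 and 14 alone (-0.99 ± 0.18, limma adjusted p = 0.0186). Wls, which carries Wnt proteins to the cell surface, was at 60.3, 60.1, 59.6 and 32.2 FPKM across the knockouts and 27.1, 33.7, 50.3 and 59.9 across the wild types (limma adjusted p = 0.496), low in the same 3 libraries as the follicle ligands. Porcn, the acyltransferase that lipidates Wnt proteins, was higher in the title code 44 knockouts, at 6.11, 8.93, 12.9 and 15.4 FPKM, against 7.60, 6.58, 8.48 and 5.97 across the wild types (limma adjusted p = 0.253), and passed with code 44 alone (0.90 ± 0.18, limma adjusted p = 0.0351).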

How the data were processed

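RNA had been depleted of ribosomal RNA and sequenced as stranded paired-end libraries on an Illumina NextSeq, per the labels' protocols. The authors deposited 1 table of FPKM values per gene symbol and library. Per the submitters' processing notes, reads were placed on mm10. Not given in the sources used here were the software that aligned and quantified them, its annotation and any use of strand. Rows exist only for genes with a value in knockout 1, 2029 rows lack a value elsewhere, and missing values were taken as 0. Krt1, Krt10, Flg2 and Rn45s, listed at exactly 0 in some libraries and above 100 FPKM in others, were left out of the tests.

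Genes with at least 1 FPKM in at least 4 of 8 libraries were compared between genotypes with limma 3.58.1 in R 4.3.3. The fit used log2(FPKM + 1) with a mean-variance trend and no covariate. It had first been run on simulated data with independent errors for each gene and library. Those data lack libraries that are low for many genes together, so they do not test the fit under that pattern. Fold changes on this scale understate those of low genes. Fits on 7 libraries required 3 and fits on 4 or 5 required 2. Alternatives were another offset, no filter, median-ratio scaling, array weights, the title code as a block or by parts, and leaving out libraries. The members, lists and tests were chosen with earlier results of these data known. Named genes were all members, called genes of each further list, and the 3 smallest p where a list had none. Myc, Tnks2, Dvl3 and the marker genes were named after their values were seen. Positions are from GENCODE M21. Of 85 further pathway symbols 80 had a row, Tle5 as Aes.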

Additional observations from a re-analysis of the deposited data

Results flagged for a closer look

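In groups of 4, a single library stood apart from the other 3 of its genotype in 5 of 70 groups (7.14%) among the 35 tested members, by a test that chance passes in about 1 of 20 groups. Over all genes tested it was 4.65% of groups. Fzd2 was at 2.45 FPKM in knockout 4, the others of its genotype at 5.70 to 5.99, and Tcf7l1 at 0.894 FPKM there, the others at 2.01 to 2.09. Wild type 2 was lowest for Fzd1, at 4.56 FPKM against 6.21 to 6.55, and for Fzd6, at 17.1 FPKM against 23.3 to 24.5. Wnt16 was at 12.2 FPKM in knockout 3, the others at 6.81 to 7.68.

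Wnt16, a ligand known from bone, also moved in opposite directions in the 2 sets of title codes: both code 44 knockouts were above both code 44 wild types, and both knockouts of codes 11 and 14 were below both wild types of those codes. The log2 changes differed by 1.05 (limma adjusted p = 0.226). No gene of 11395 passed limma's test of that difference after adjustment, while 1771 had an unadjusted p under 0.05, 4 of them members (Rnf43, Sfrp1, Wnt16 and Wnt3).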

How the results depend on the processing

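Wnt3, Wnt11 and Dkkl1 kept their direction and their call under all 16 alternatives, and Sfrp1 under all but codes 11 and 14 alone and the fit without knockout 4 and wild types 1 and 2. Members called higher, 3, were 5 with the title code block and 13 with array weights, and 3 to 7 when single libraries were left out, with 7 without knockout 4. Members called lower, 1, were 2 with no filter, with median-ratio scaling and with codes 11 and 14 alone, 3 with array weights, and 1 without each single library. Other pathway genes called higher, 3, were 5 with no filter, 8 with the title code block, 19 with array weights, 9 with code 44 alone, 1 without knockout 4 and wild types 1 and 2 (an alternative added after the data were seen), and 2 to 9 without single libraries, 9 without knockout 4 and 6 without wild type 4. Those called lower, 3, were 1 without those 3 libraries and 2 to 3 without single ones. Over all genes, array weights called 3669 of 11395 against 1785, and the causes were not tested.

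Among members that did not pass, 9 changed sign somewhere, none of them past the threshold there. Array weights added Axin1, Fzd5, Fzd6, Lgr4, Lgr5, Rnf43, Tcf7, Wnt10a, Wnt10b and Wnt6 as higher and Fzd8 and Lrp5 as lower. With array weights the log2 change was 0.29 for Ctnnb1, 0.056 for Fzd10, 0.30 for Fzd7, 0.13 for Wnt16, 0.055 for Wnt7b and 0.11 for Znrf3. With codes 11 and 14 alone it was 0.019 for Ctnnb1, -0.13 for Fzd3, -0.083 for Lrp6 and 0.042 for Wnt7b. With code 44 alone it was 0.13 for Fzd7, 0.50 for Wnt16, 0.00044 for Wnt7a, 0.061 for Znrf3 and, among other pathway genes, 0.015 for Sostdc1, and without knockout 4 and wild types 1 and 2 -0.054 for Fzd3 and -0.045 for Lrp6. Without single libraries the ranges were -0.17 to 0.22 for Ctnnb1, -0.19 to 0.089 for Fzd10, -0.082 to 0.22 for Fzd3, -0.17 to 0.19 for Fzd7, -0.029 to 0.15 for Lrp6, -0.19 to 0.13 for Wnt16, -0.15 to 0.0083 for Wnt7b and -0.14 to 0.072 for Znrf3. FPKM carries no counts, so counting error near 1 FPKM is unknown.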

Other observations

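Shares within the Frizzled family were as follows. Fzd10 took 45.6% ± 3.22 (SD, n = 4) of the summed Frizzled FPKM across the knockouts and 50.4% ± 4.81 across the wild types, and Fzd6 29.2% ± 4.21 and 22.5% ± 4.28. The share of Fzd1 was 3.61% to 4.97% across the knockouts and 5.07% to 7.76% across the wild types, without overlap, although its level overlapped (3.85, 5.69, 5.22 and 2.87 against 6.55, 4.56, 6.21 and 6.48 FPKM). Among ligands, Wnt3 made up 28.5% of the summed FPKM in knockout 4 and 12.7% to 17.7% in the other knockouts, against 8.15% to 9.68% in the wild types. Shares are given as descriptions, since a rise of 1 gene lowers the share of all others.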
